A study of Mus musculus with 1183 samples.

Results

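Neutrophils of the hyperoxic neonatal mouse lung were examined in single-cell RNA-seq of sorted immune cells. Their members were the cells that the labels give the subtype neutrophil, 11.3% of 1183 cells in all, with 56 of 598 cells from a female and 78 of 585 from a male animal. Both mice were at postnatal day 7 and came from hyperoxia, in which excess oxygen injures the developing lung, and all cells came from the distal lung. The labels used here name no strain, genotype or oxygen level, and no lung in normal oxygen was analysed here, so every value below describes hyperoxic tissue and none is an effect of oxygen. Each sex was 1 animal, and sex and animal cannot be told apart. The other 1049 cells, 542 female and 507 male, carry 15 other subtype labels, and their reads summed within an animal formed the main reference. All but 3 of the neutrophils lay on 4 plates whose wells were filled by a gate on CD45, which marks leukocytes. There were 27 (9.38% of the cells of the plate) on the first female CD45 plate, 28 (9.21%) on the second, 42 (14.4%) on the first male plate and 34 (11.8%) on the second. The remaining 3 had been sorted for mesenchymal cells in the female (1 cell) or for the endothelial protein CD31 in the male (2 cells). The first female CD45 plate was sequenced in run DC28 and the other CD45 plates in run DC35.

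Neutrophils are short-lived phagocytes that leave the bone marrow fully equipped and reach inflamed tissue within hours. Their granule proteins are made in waves during maturation in the marrow, with myeloperoxidase and serine proteases of the primary granules first, lactoferrin and cathelicidin of the secondary granules next, and gelatinase of the tertiary granules last. In tissue they release interleukin 1 beta and chemokines, produce superoxide through the NADPH oxidase and shed proteases, and in the newborn lung an influx of neutrophils is a known feature of oxygen injury.

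The neutrophils held 94680518 reads in genes, 42183313 of them female and 52497205 male, and a cell had a median of 589007 reads (lowest 16753, highest 2651005) against 1166993 in the other cells. Levels are given as CPM, reads of a gene per 1000000 reads summed over the cells of a class in an animal. They are not corrected for gene length, so they are compared between classes and not between genes. For comparisons between cells, 100000 reads were drawn at random from each, leaving 55 female and 78 male neutrophils after 1 shallow female cell was dropped, and a cell with at least 5 reads of a gene was counted as positive for it. At this depth a neutrophil had a median of 1284 detected genes (female) or 1397 (male), the lowest of 15 subtypes in both animals. Basophils were next, with 1920 and 1935 genes.

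The label was checked against 10 neutrophil genes fixed as markers, at a minimum of 50 CPM in a cell. At least 5 of them were present in all but 11 of the cells and at least 3 in all but 2, which held none. Macrophage markers summed to 31.3 CPM in female and 9.52 CPM in male neutrophils, against 2522 and 3903 CPM in the other cells. NK cell markers stood at 0 and 0.152 CPM. The sum of the monocyte markers was not low in this way, at 547 and 532 CPM against 1313 and 1193 CPM. No neutrophil had at least 3 of the 5 monocyte markers. T cell markers stood at 93.76 and 45.72 CPM against 268.4 and 247.6 CPM. Eosinophil markers stood at 47.85 CPM in male neutrophils, above the 35.65 CPM of the other male cells. In female neutrophils they stood at 25.08 CPM, below the other female cells. The part of these markers in the results was not tested. In 10 neutrophils, 2 female and 8 male, the label and the markers disagreed, because none of the 10 markers was present or because at least 3 markers of another cell type were (endothelial in 5 cells, erythroid in 2, B cell in 1, fibroblast in 1). The summed endothelial markers accordingly stood at 21.4 CPM (female) and 581 CPM (male), and the erythroid markers at 32.2 and 6552 CPM. Where the CPM of single neutrophils of both animals were added, 1 cell held 98.7% of the erythroid sum. Counts that lead the comparisons below are also given without these 10 doubtful cells. Without them, the monocyte sum lay in Ly6c2 (238.1 and 403.2 CPM) and Csf1r (312.6 and 184.7 CPM). Fn1 stood at 1.44 and 0.408 CPM, F13a1 at 0 and 0.0454 CPM and Ccr2 at 0 in both animals. Cd3d (88.1 and 35.3 CPM) led the T cell markers, with Cd3e at 0.0958 and 0.0907 CPM. Siglecf (25.3 and 56.1 CPM) led the eosinophil markers, of which 3 of 5 were among the genes counted.

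All 5 genes that mark these cells were at their highest in neutrophils among 15 subtypes in both animals. They were chosen as markers with earlier results of these data known, so this rank is a description and no test. Of all genes, 484 of 16160 (3%) were highest in neutrophils in both. Il1b, which encodes the precursor of interleukin 1 beta, stood at 7187 CPM in female and 5974 CPM in male neutrophils, against 238.9 and 182.6 CPM in the other cells. On the single plates it was 4414 and 9728 CPM on the female plates and 5771 and 6239.9 CPM on the male plates. Every neutrophil value was above both values of the other cells, and the plates of the female differed more from each other than the animals did. Mmp8, neutrophil collagenase, stood at 1236 and 963 CPM against 10.8 and 6.19 CPM. Its plate values were 2038 and 556 CPM on the female plates and 909 and 1027 CPM on the male plates, again without overlap with the other cells. The chemokine Cxcl2, a ligand of Cxcr2 that recruits further neutrophils, stood at 961 and 1037 CPM against 64.6 and 120.97 CPM. Next were Mac IV cells at 326.3 CPM in the female and cells labelled IL at 499 CPM in the male, where Mac IV had 399 CPM. Retnlg, a resistin-like protein of myeloid cells, stood at 4399.9 and 5374 CPM in neutrophils and rested on 6 reads in all other cells together. Mmp9, gelatinase B of the tertiary granules, stood at 2084 and 1753 CPM against 3.52 and 0.435 CPM. These genes did not mark the same share of cells. Mmp9 was positive in 50 of 55 female and 71 of 78 male neutrophils (90.98% of both together, exact 95% interval 84.8 to 95.3%), and Il1b in 43 and 57 (75.2%, 66.96 to 82.3%). Retnlg was positive in 29 and 41 (52.6%, 43.8 to 61.3%), Mmp8 in 26 and 41 (50.4%, 41.6 to 59.2%) and Cxcl2 in 21 and 31 (39.1%, 30.8 to 47.9%). Among 64 B cells thinned in the same way, 6 (9.38%) were positive for Il1b and none for the other 4 genes.

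**Figure D1:**
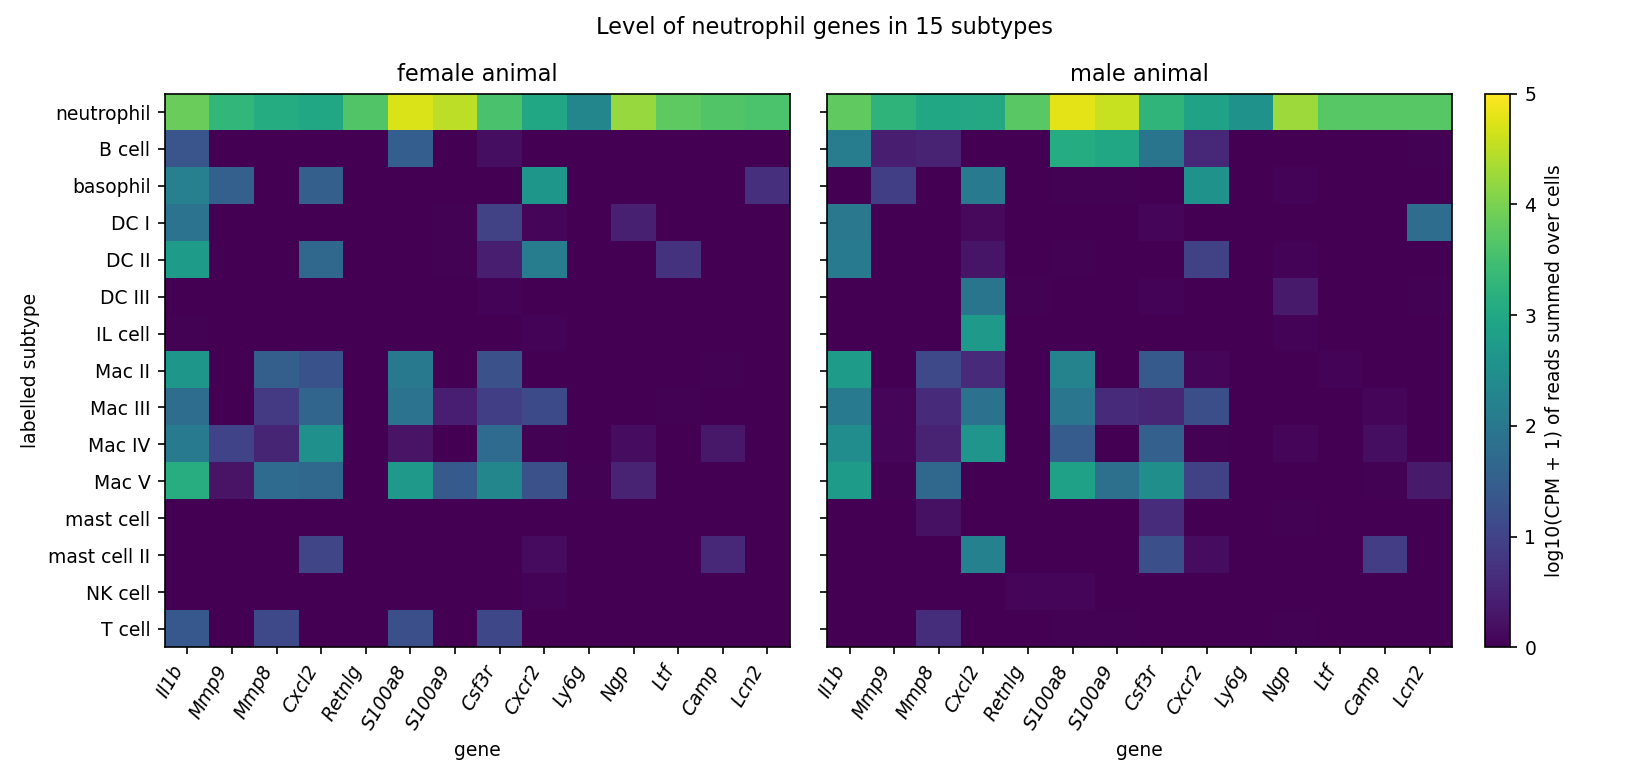
Colour shows log10(CPM + 1) of reads summed over cells for 14 neutrophil genes (columns) in 15 labelled subtypes (rows), with the female animal on the left and the male on the right. The neutrophil row at the top is the brightest in every column of both panels; Il1b, Csf3r and S100a8 are also visible in Mac V, Cxcr2 in basophils and S100a8 in male B cells.

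Neutrophils were tested against all other cells of the same animals with edgeR's quasi-likelihood test on the summed counts, with Benjamini-Hochberg adjustment over all genes tested and a call at an adjusted p under 0.05. The fit was scaled by TMM factors, so a fitted log2 difference can exceed the ratio of CPM values, and the median over all genes was -0.40. Of 16160 genes, 1.14% were called, with 0.792% higher and 56 genes (0.347%) lower in neutrophils. Il1b was higher by a log2 difference of 5.79 (SE 0.36, adjusted p = 0.0260), Mmp8 by 7.85 (SE 0.52, adjusted p = 0.0266), Cxcl2 by 4.22 (SE 0.46, adjusted p = 0.0447) and Retnlg by 20.71 (SE 1.07, adjusted p = 0.02498). Mmp9 had a larger fitted difference than Il1b, 10.77, but a larger standard error of 1.43 and did not pass (adjusted p = 0.0540), and it passed with the animal as a block (adjusted p = 0.0324). Within run DC35 alone 120 genes were called, and run DC28 holds 1 animal only. With 2 animals the count moved widely, and 3080 genes were called without the 10 doubtful cells (1050 higher, 2030 lower), 7299 when the female neutrophils and 9482 when the male neutrophils were left out, where the lone neutrophil library is assumed to vary like the other group. The basis of the subtype labels is not stated, and where it was the expression of these very cells, a call only describes the labelled class.

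The genes with the largest called differences in each direction were as follows. Above the rest, beside Retnlg, stood Itgb2l, an integrin beta subunit, with 336.5 and 208.6 CPM in neutrophils and 1 read in all other cells, and Olfm4, which encodes olfactomedin 4 of a subset of secondary granules, with 1051 and 325.9 CPM and 9 reads. Ly6g, the surface antigen used to identify mouse neutrophils, stood at 200.3 and 359.1 CPM in neutrophils and at 7 reads in the other cells. Mrgpra2b, a G protein-coupled receptor, stood at 74.8 and 94.6 CPM and at 0 reads in the other cells, which makes it at least 38572-fold higher against a floor of 3 reads over the group. Ceacam10, Foxd4, Prps1l1 and Ankrd22 completed the set, between 46.4 and 241.2 CPM in the neutrophils of either animal. In the other direction, 0 reads were found in neutrophils for the mast cell tryptases Tpsb2 and Tpsab1 (at least 171100-fold and 10200-fold lower), for the macrophage complement genes C1qb and C1qc (at least 38803-fold and 23792-fold lower) and for the T cell receptor constant regions Trbc1 and Trbc2 (at least 3525-fold and 3485-fold lower). Fcrls, Cd200r3, Fcna, Krt19, Cd2 and Slamf9 were also at 0 reads in neutrophils, and their bounds ran from 3318-fold to 5715-fold lower. Under the animal block the calls of Ankrd22, Fcna, Krt19, Trbc1, Trbc2, Cd2 and Slamf9 were lost, with adjusted p between 0.0567 and 0.0621. Prps1l1, Ankrd22, Cd200r3 and Fcna lost theirs with the size factors of DESeq2 (adjusted p from 0.0506 to 0.0564). Within run DC35 alone these 4 and Krt19, Trbc1, Trbc2, Cd2 and Slamf9 did not pass (adjusted p from 0.0512 to 0.123). Fcna and Trbc1 also lost theirs without the other female cells (adjusted p = 0.0706 and 0.0510), and Krt19 and Slamf9 without the other male cells (adjusted p = 0.0524 and 0.0544).

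**Figure D2:**
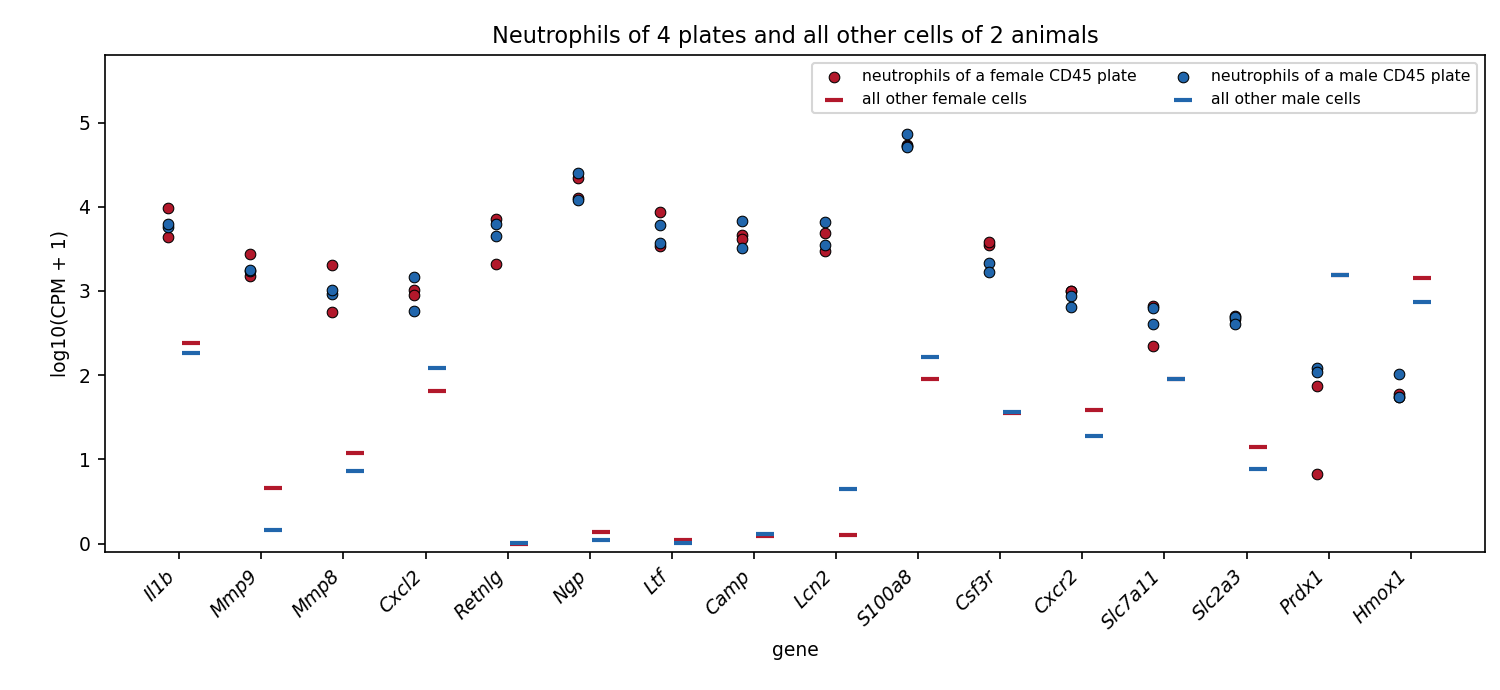
Points show log10(CPM + 1) of 16 genes in the neutrophils of each CD45 plate (red female, blue male) and short bars the level in all other cells of the same animal. For the first 14 genes every neutrophil plate lies above the bars of both animals, and for Prdx1 and Hmox1 every plate lies below them.

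Across the genes in lists of neutrophil functions, 28 were higher (17.8% of those tested) and 1 lower (0.637%). Their median log2 difference was 1.41, against -0.40 over all genes. With the animal as a block 35 were higher and 1 lower, and without the 10 doubtful cells 67 were higher and 14 lower. Over all genes the block gave 0.7859% higher and 0.2351% lower. The fit without the doubtful cells gave 6.536% higher and 12.64% lower over all genes. In that fit the listed genes were called higher more often, and lower less often, than all genes. Its counts for single lists below are to be read against these shares. With the size factors of DESeq2 in place of TMM, Cxcl2, Fcnb, Cxcr2, Trem1, Itgam, Junb, Fos, Klf2 and Ptgs2 did not pass (adjusted p from 0.0506 to 0.0722). Within run DC35 alone, Cxcl2, Fcnb, Slfn4, Junb and Klf2 did not (adjusted p from 0.0512 to 0.0843). The lists differed widely from one another, from a median of 10.24 in the secondary granule genes to -8.68 in the primary granule genes.

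**Figure D3:**
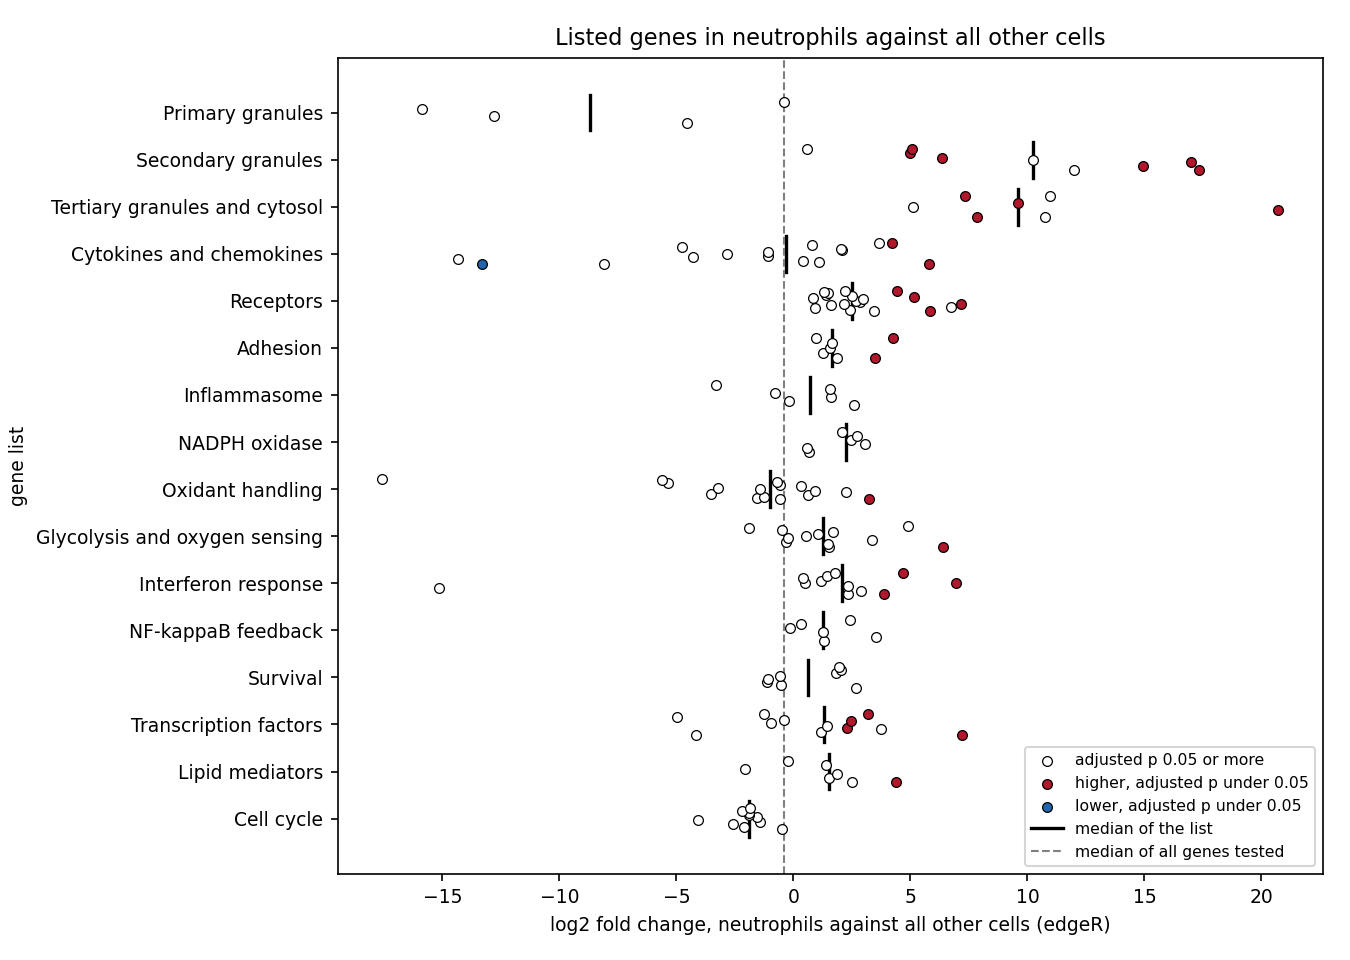
Each circle is a listed gene, placed by its log2 fold change in neutrophils against all other cells, with red for higher and blue for lower at an adjusted p under 0.05. The black bar is the median of each list and the dashed line the median of all genes tested, -0.40; secondary granule genes lie farthest right and primary granule genes farthest left.

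Genes of the primary granules, which are transcribed in promyelocytes, were at or near 0. Elane, Prtn3 and Ctsg, 3 serine proteases, had 0 reads in the neutrophils of either animal, and for Ctsg this was at least 670.1-fold below the other cells. Mpo, myeloperoxidase, stood at 0 and 0.133 CPM, and the serine protease Prss57 at 1.90 and 0.152 CPM. None of the 4 genes tested was called against the other cells, and their median log2 difference was -8.68, or -5.38 with genes at 0 placed at their bound. Ctsg was called lower without the doubtful cells.

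Secondary granule genes were the list with the largest differences. Of 9 tested, 6 were higher in neutrophils and none lower, and 8, all but Lyz2, were highest of the 15 subtypes in both animals. Ngp, neutrophilic granule protein, stood at 16815 and 18570.0 CPM in neutrophils against 0.377 and 0.0980 CPM in the other cells. By plate it was 21803 and 12742 CPM on the female plates and 12018 and 24878 CPM on the male plates, so plates of 1 animal differed more than the animals. The log2 difference was 17.01 (SE 1.15, adjusted p = 0.0267). Ltf, lactoferrin, an iron-binding antimicrobial protein, stood at 5816 and 4924 CPM against 0.106 and 0.00964 CPM, a log2 difference of 17.33 (SE 1.75, adjusted p = 0.0397). Its plate values, 8694 and 3400.4 CPM on the female plates and 3706 and 6117 CPM on the male plates, did not overlap with the other cells. Camp, the cathelicidin precursor, stood at 4342 and 5058 CPM against 0.238 and 0.289 CPM, a log2 difference of 14.91 (SE 0.44, adjusted p = 0.0200). The chitinase-like Chil3 (899 and 715 CPM), the haemoglobin scavenger Hp (1997 and 2306 CPM) and the lectin ficolin B, Fcnb (130.6 and 64.3 CPM), were the other called members, with log2 differences of 4.97, 5.05 and 6.36. The call of Fcnb was lost with the animal as a block (adjusted p = 0.0596) and without the other female cells (adjusted p = 0.0548). Lcn2, the siderophore-binding lipocalin 2, stood at 3794 and 5082 CPM against 0.260 and 3.43 CPM, and Cd177, a surface protein of neutrophils, at 894 and 415 CPM against 1.88 and 0.112 CPM. Neither passed (adjusted p = 0.0632 and 0.0814), and both passed with the block (adjusted p = 0.0489 and 0.0392) and without the doubtful cells, where 8 of the 9 were higher. Lyz2, lysozyme 2, which macrophages also make, stood at 10912 and 11456 CPM, below the 13087 and 13338 CPM of the other cells, while its fitted log2 difference was 0.56 (SE 0.24, adjusted p = 0.198).

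The start regions of Ngp, Ltf and Camp are shown because these genes were found in the same cells, as described further below. Those of Il1b, mostly found in other cells, and of Cxcl2, found on both sides, are shown beside them. The sequences are those of RefSeq on build GRCm38.p6, from 250 bases before to 50 bases after the annotated start, read 5′ to 3′ along the gene's strand, and 83.02% of the listed genes had an entry. Capitals mark matches on either strand to TTGCNNAA, a form of the site bound by C/EBP factors, which direct granulocyte maturation, or, in Cxcl2, to GGGA and TTCC with 2 bases between them, a form of the NF-kappaB site. The windows of Ngp (chr9:110419558-110419857, plus strand), Ltf (chr9:111019042-111019341, plus strand), Camp (chr9:109849407-109849706, minus strand), Il1b (chr2:129371090-129371389, minus strand) and Cxcl2 (chr5:90903649-90903948, plus strand) read as follows.
Ngp: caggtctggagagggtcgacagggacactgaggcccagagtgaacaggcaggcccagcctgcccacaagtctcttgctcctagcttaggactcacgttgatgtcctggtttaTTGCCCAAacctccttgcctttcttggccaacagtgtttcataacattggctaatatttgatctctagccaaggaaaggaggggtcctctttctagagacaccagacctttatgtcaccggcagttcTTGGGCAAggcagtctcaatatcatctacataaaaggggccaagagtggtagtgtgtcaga
Ltf: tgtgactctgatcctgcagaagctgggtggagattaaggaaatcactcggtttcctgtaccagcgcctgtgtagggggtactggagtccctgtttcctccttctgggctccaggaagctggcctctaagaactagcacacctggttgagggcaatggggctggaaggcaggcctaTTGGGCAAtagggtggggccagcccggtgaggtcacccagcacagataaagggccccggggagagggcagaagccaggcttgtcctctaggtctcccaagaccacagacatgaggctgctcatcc
Camp: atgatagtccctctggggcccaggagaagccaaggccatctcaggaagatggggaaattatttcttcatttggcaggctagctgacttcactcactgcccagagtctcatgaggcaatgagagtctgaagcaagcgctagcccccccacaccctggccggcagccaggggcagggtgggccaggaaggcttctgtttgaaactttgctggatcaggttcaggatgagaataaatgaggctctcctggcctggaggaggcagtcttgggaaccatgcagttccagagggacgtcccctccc
Il1b: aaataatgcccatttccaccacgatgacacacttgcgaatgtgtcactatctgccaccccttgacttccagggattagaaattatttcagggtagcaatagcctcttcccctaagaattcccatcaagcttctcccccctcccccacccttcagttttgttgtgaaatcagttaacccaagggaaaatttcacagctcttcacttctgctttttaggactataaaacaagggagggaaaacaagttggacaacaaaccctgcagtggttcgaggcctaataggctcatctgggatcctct
Cxcl2: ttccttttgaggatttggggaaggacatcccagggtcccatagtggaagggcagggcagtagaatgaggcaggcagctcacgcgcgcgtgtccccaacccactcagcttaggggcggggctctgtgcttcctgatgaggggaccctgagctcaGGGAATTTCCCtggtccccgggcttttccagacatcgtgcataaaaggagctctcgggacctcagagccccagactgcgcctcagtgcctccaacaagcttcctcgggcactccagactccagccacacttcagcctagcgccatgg
Ngp held the C/EBP letters at 2 places, the nearer beginning 11 bases before the start, and Ltf 75 bases before it. Of 7 secondary granule genes searched that had an entry, 4 held them (57.1%), the other 2 being Lcn2 and Fcnb, against 10.8% of 32851 promoter windows of the same length. Lyz2 of the secondary granule list was not searched. The C/EBP letters were also in 3 of 6 windows of the tertiary granule and cytosol genes, namely S100a9, Retnlg and Mmp8. Of the 5 windows of Il1b, Cxcl2, Ccl3, Ptgs2 and Tnf, 1 held them (20%), that of Ptgs2, beginning 69 bases before the start. They were thus not limited to the secondary granule genes. The letters were not in the windows of Camp, Cd177 and Chil3. Cxcl2 held overlapping matches to the NF-kappaB letters beginning 97 and 96 bases before the start, and 1.47% of all windows held a match. GAGGAAGT, a form of the site of the myeloid factor PU.1, was searched as well and matched S100a8 and Mmp8, against 3.2% of all windows. The Il1b window held none of the 3, and a match or its absence in a window is a description of letters only.

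Of 7 genes of the tertiary granules and the cytosol, 4 were higher in neutrophils and none lower, with a median log2 difference of 9.61 against -0.40 over all genes. S100a8, a subunit of the calcium-binding protein calprotectin, stood at 53034 and 62009 CPM against 87.9 and 165.5 CPM in the other cells. Its plate values were 54033 and 52698 CPM on the female plates and 50686 and 73293 CPM on the male plates, and the log2 difference was 9.61 (SE 0.58, adjusted p = 0.0260). S100a9, its partner subunit, stood at 31901 and 38408 CPM against 3.42 and 56.9 CPM (log2 difference 10.95, SE 1.87, adjusted p = 0.0749). S100a8 and S100a9 together took 8.49% of female and 10.04% of male neutrophil reads. Both were detected in nearly all neutrophils, S100a8 in 55 of 55 female and 77 of 78 male cells and S100a9 in 55 and 76, against 2 and 1 of 64 B cells. The class with the next highest S100a8 by name, male B cells at 1264 CPM, owed 99.99% of these reads to 1 of 26 cells. Padi4, the enzyme that citrullinates histones when neutrophils release chromatin, stood at 493 and 304.4 CPM against 5.31 and 3.62 CPM (log2 difference 7.32, SE 0.56, adjusted p = 0.0286). Mmp25, a membrane-anchored metalloproteinase, stood at 128.8 and 47.5 CPM and was the exception in rank, since DC III cells had 350.1 and 125.4 CPM. All 7 were higher once the doubtful cells were left out.

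Among 16 cytokines and chemokines, Il1b and Cxcl2 were higher in neutrophils and Il6 was lower, and the median log2 difference was -0.34, close to the -0.40 of all genes. The same 2 genes were the only ones of the list with their highest level in neutrophils in both animals. Il6, the cytokine that drives the acute phase response, rested on 1 read in all neutrophils against 229.8 and 164.2 CPM in the other cells, a ratio of 18890 with a 95% counting interval from 3390.5 to 746130. Basophils had 3064 and 5111 CPM of Il6. Il1a, the other interleukin 1 agonist, stood at 0.119 and 0.0381 CPM in neutrophils against 43.3 and 33.4 CPM, and did not pass (adjusted p = 0.0679). Il1rn, which encodes the interleukin 1 receptor antagonist, was present in 24 of 55 female and 42 of 78 male neutrophils at 441 and 316.7 CPM against 315.97 and 305.6 CPM (adjusted p = 0.122), second to Mac III cells at 958 and 771 CPM. The oncostatin gene Osm stood at 1586 and 807 CPM in neutrophils, 722 and 310.6 CPM in the other cells and 8023 and 5061 CPM in basophils. Ccl6, a chemokine of myeloid cells, was positive in 39 of 55 female and 59 of 78 male neutrophils at 1435 and 1626 CPM, below Mac III cells at 13072 and 16291 CPM. Ccl3, a chemokine for monocytes and T cells, varied most between plates, with 306.2 and 17.9 CPM on the female plates and 367.98 and 666 CPM on the male plates, and was positive in 19 neutrophils, 5 female and 14 male. Basophils had 17848 and 27224 CPM of Ccl3. Leaving out the doubtful cells added Il1rn to the higher and Il1a to the lower genes.

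Of 19 receptor genes, 4 were higher in neutrophils and none lower, with a median log2 difference of 2.48, and 9 were highest of the 15 subtypes in both animals. Csf3r, the receptor for granulocyte colony-stimulating factor, stood at 3629.5 and 1884 CPM against 34.1 and 35.4 CPM (log2 difference 7.15, SE 0.58, adjusted p = 0.0311) and was positive in 53 of 55 female and 69 of 78 male neutrophils. Its plate values were 3518 and 3765 CPM on the female plates and 2132 and 1666 CPM on the male plates, so here both female plates lay above both male plates. Cxcr2, the receptor for Cxcl2 and related chemokines, stood at 1001 and 755 CPM against 37.4 and 17.8 CPM (log2 difference 5.83, SE 0.56, adjusted p = 0.0397). Basophils were next with 436 and 350.5 CPM of Cxcr2. The activating receptor Trem1 (804 and 455 CPM) and the C-type lectin Clec4d (439 and 622 CPM) were higher by log2 differences of 5.13 and 4.42. Cxcr4, which retains neutrophils in the marrow and marks aged ones, stood at 33.9 and 36.7 CPM against 5.92 and 5.30 CPM, its highest level of 15 subtypes in both animals, and did not pass (adjusted p = 0.0839, or 0.0427 without the doubtful cells). The interleukin 1 decoy receptor Il1r2 stood at 449 and 697 CPM against 16.7 and 2.51 CPM (adjusted p = 0.0725), and the complement receptor C5ar1 at 1084 and 728 CPM against 277.5 and 169.4 CPM (adjusted p = 0.0639, or 0.0392 with the animal as a block). Of 7 adhesion genes, Itgam, the integrin chain CD11b, stood at 768 and 629.6 CPM against 111.6 and 105.95 CPM and was higher (log2 difference 3.50, adjusted p = 0.0397). With the doubtful cells left out, 13 of 19 receptors and 5 of 7 adhesion genes were higher, against 6.536% of all genes.

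None of 6 inflammasome genes and none of 6 NADPH oxidase genes was called, although the oxidase genes had a median log2 difference of 2.27. Nlrp3, the sensor of the inflammasome that releases interleukin 1 beta, stood at 97.3 and 64.1 CPM against 27.8 and 20.3 CPM (adjusted p = 0.0868). Cybb, the catalytic subunit of the oxidase, stood at 713 and 784 CPM, close to the 830.4 and 832 CPM of the other cells. Its cytosolic partners Ncf1 and Ncf4 had larger ratios. Ncf1 stood at 1155 and 658 CPM against 214.1 and 176.8 CPM (adjusted p = 0.0615), and Ncf4 stood at 756 and 579 CPM against 198.7 and 159.4 CPM (adjusted p = 0.0533, or 0.0494 with the block). Without the doubtful cells, Ncf1, Ncf4 and the small GTPase Rac2 were higher and Cybb was not, while Nlrp3 was higher and Il18 lower.

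Among 16 genes that handle oxidants, 1 was higher and none lower, with a median log2 difference of -0.99 against -0.40 over all genes. The gene called was Slc7a11, the cystine carrier that feeds glutathione synthesis, at 448 and 507 CPM against 88.4 and 90.2 CPM (log2 difference 3.22, SE 0.28, adjusted p = 0.0347). Its plates gave 220.3 and 654 CPM on the female plates and 620.5 and 409.6 CPM on the male plates, all above the other cells. Several enzymes stood far below the other cells without passing. Prdx1, a peroxiredoxin that removes peroxide, stood at 44.2 and 116.6 CPM against 1544 and 1558 CPM (log2 difference -3.51, SE 0.50, adjusted p = 0.0599), and was positive in 6 of 55 female and 12 of 78 male neutrophils but in 57 of 64 B cells. Hmox1, haem oxygenase 1, stood at 56.3 and 75.8 CPM against 1426 and 739.6 CPM (adjusted p = 0.0533), and the plate values of both genes lay below both values of the other cells. The metallothionein Mt2 had 0 reads in neutrophils, at least 2181.8-fold lower than in the other cells (adjusted p = 0.0507). Sod2, mitochondrial superoxide dismutase, at 16.6 and 57.2 CPM, and Cat, catalase, at 52.7 and 17.4 CPM, were at their lowest of 15 subtypes in both animals, where 1.94% of genes were. Neither was called (adjusted p = 0.179 and 0.299). Fth1, ferritin heavy chain, stood at 3347 and 5917 CPM against 11577 and 14326 CPM (adjusted p = 0.232). Without the doubtful cells Prdx1, Hmox1 and Mt2 were lower and Slc7a11 and Prdx5 higher. Of all genes, 12.64% were lower and 6.536% higher in that fit.

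Of 12 genes of glycolysis and oxygen sensing only Slc2a3, the glucose carrier GLUT3, was called. It stood at 482 and 446 CPM in neutrophils against 13.1 and 6.66 CPM (log2 difference 6.38, SE 0.51, adjusted p = 0.0304), and its plates ranged from 409.8 to 502 CPM. Hk3, a hexokinase of myeloid cells, stood at 203.5 and 122.2 CPM against 29.9 and 27.7 CPM (adjusted p = 0.0598). Ldha, lactate dehydrogenase A, stood at 419.7 and 448 CPM, below the 1204 and 909 CPM of the other cells, with a fitted log2 difference of -0.47 (adjusted p = 0.309). Of 12 interferon-response genes, 3 were higher, namely Ifitm6 (692 and 879.9 CPM against 104.1 and 84.4 CPM) and the Schlafen genes Slfn4 (193.5 and 157.3 CPM against 1.92 and 3.08 CPM) and Slfn1 (472 and 441 CPM against 29.7 and 33.5 CPM). Ifitm6 was not highest in neutrophils, since Mac V cells had 824 and 989 CPM. Ptgs2, cyclooxygenase 2, was the only one of 7 lipid-mediator genes called, at 335.8 and 226.5 CPM against 29.8 and 17.7 CPM (log2 difference 4.40, SE 0.50, adjusted p = 0.0480), and basophils had 409 and 380.2 CPM of it. More genes passed without the doubtful cells, where Hk3, Eno1 and Pkm of glycolysis and Alox5, Alox5ap and Lta4h of the lipid mediators were also higher and Ifit3 of the interferon response was lower.

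Of 12 transcription factors, 4 were higher in neutrophils. Cebpe, the factor required for secondary granules, stood at 216.4 and 171.3 CPM against 2.03 and 2.55 CPM (log2 difference 7.22, SE 0.49, adjusted p = 0.0267) and was positive in 14 of 55 female and 18 of 78 male cells. The immediate-early genes Fos (6956 and 6459 CPM against 2264 and 1989.9 CPM) and Junb (2112 and 2576 CPM against 923 and 773 CPM) and the quiescence factor Klf2 (934 and 744 CPM against 185.5 and 142.5 CPM) were higher by log2 differences of 2.47, 2.27 and 3.18. Cebpd stood at 284.97 and 367.1 CPM against 29.9 and 53.7 CPM (adjusted p = 0.0507, or 0.0475 with the block). None of 8 survival genes passed. Mcl1, the BCL2-family protein on which neutrophil survival depends, stood at 1459.8 and 826 CPM against 356.4 and 283.6 CPM and was highest of 15 subtypes in both animals (adjusted p = 0.0727). Of 6 genes of NF-kappaB feedback none passed, and Nfkbiz and Zfp36 passed with the block (adjusted p = 0.0391 and 0.0475). Of 10 cell cycle genes none passed, with a median log2 difference of -1.90. In the fit without the doubtful cells 5 of them were lower (Top2a, Cdk1, Nusap1, Tyms and Rrm2) and the median was -7.01. Over all genes that fit gave 12.64% lower and a median of -0.6817. At least 4 of the 10 were positive in 1 of 55 female and 1 of 78 male neutrophils and in 14.5% of 1045 other cells, a description with no test, since cells are not replicates. That fit also called Mcl1, Pim1, Nfkbia, Nfkbiz and Zfp36 higher, and of the 12 transcription factors 7 were higher and Gfi1 was lower. For the cell cycle list the direction depended on the reference. In the main fits its median was 1.95 against Mac V, with no call. Against basophils it was 5.52, with Top2a, Birc5 and Cenpf higher and none lower. Without the doubtful cells the medians were -2.55 and 1.31, and against basophils Top2a and Birc5 were higher and Tyms lower.

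Mac V cells, 66 female and 45 male, were the macrophage-labelled class with the highest Ly6c2, a monocyte antigen, and the second highest Il1b after neutrophils (1330.2 and 576 CPM). In a fit over the 10 subtypes that had 15 or more cells per animal, 1.32% of 15379 genes were called between neutrophils and Mac V, 64 genes higher (0.416%) and 0.904% lower in neutrophils. With the size factors of DESeq2 in place of TMM the split was 0.598% higher and 0.793% lower. It turned to more genes higher with only the 2 subtypes in the fit (0.654% higher, 0.192% lower), with DESeq2 (8.61% and 7.62%) and with voom (3.83% and 3.54%). Within run DC35 alone 83 genes were called. The count was 79 without female and 66 without male Mac V cells, 95 without female and 557 without male neutrophils, and 611 without the doubtful cells. Of the listed genes 10 (6.41% of those tested) were higher (Ltf, Camp, Ngp, Retnlg, Mmp9, Mmp25, Cxcr2, Csf1, Rac2 and Slc2a3) and 1 lower (Prdx1), with a median log2 difference of 1.20 against 0 over all genes. Retnlg rested on 1 read in Mac V, a ratio of 640780 with a 95% counting interval from 115010 to 25310000, and Ltf on 0 reads, which makes it at least 230070-fold higher. Camp was higher by a log2 difference of 17.42 (SE 2.04, adjusted p = 0.00391). Il1b itself did not pass between these classes (log2 difference 3.21, SE 2.01, adjusted p = 0.424), nor did S100a8 (6.99, SE 2.02, adjusted p = 0.111).

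Of the genes lower in neutrophils, the 6 with the largest differences are named. Ccr2, the chemokine receptor by which monocytes leave the marrow, stood at 0.0237 and 0.0190 CPM in neutrophils against 572 and 893 CPM in Mac V, a ratio of 32454 (95% counting interval 8984 to 267990) and an adjusted p of 5.31e-06. Fcgr1, the high-affinity receptor for IgG, stood at 126.8 and 149.9 CPM in Mac V and was lower in neutrophils. Phf11b had 0 reads in neutrophils against 113.3 and 140.9 CPM, at least 3884-fold lower, and Adora2b, an adenosine receptor, was at least 1515-fold lower. The coagulation factor gene F13a1 and Ms4a6b completed the 6. Calls of Ltf, Retnlg, Camp, Ccr2, Fcgr1 and Phf11b held without any 1 of the 4 libraries compared. All 3 of Mmp9, Csf1 and Cxcr2 lost theirs without either Mac V library and without the female neutrophils, with adjusted p from 0.0859 to 0.303, and Mmp9 also with the block (adjusted p = 0.0620). Mmp25, Rac2 and Slc2a3 were lost without either Mac V library, and Ngp and Prdx1 without the male one (adjusted p = 0.0610 and 0.0627). Adora2b and F13a1 were lost without any 1 of the 4 libraries (adjusted p from 0.0809 to 0.192). Leaving out the female neutrophils also ended the calls of Mmp25, Rac2, Prdx1 and Ms4a6b (adjusted p from 0.0657 to 0.0860).

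Against basophils, the granulocytes of the allergic response and the other granulocyte label with many cells (34 female, 19 male), 1163 of 15379 genes (7.56%) were called, 727 higher (4.73%) and 436 lower (2.84%) in neutrophils. Within run DC35 alone 834 genes were called. The count was 747 without female neutrophils, 695 without male basophils and 1597 without the doubtful cells. Of the listed genes 51 (32.7% of those tested) were higher and 8 (5.13%) lower, with a median log2 difference of 1.85 against 0.36 over all genes, but 30 of these 59 calls were lost when 1 of the 4 libraries was left out. All 9 secondary granule genes were higher, and Ltf, Camp, Ngp and Lyz2 remained so without any 1 library. Camp had 0 reads in basophils, at least 109100-fold below neutrophils, and Retnlg also had 0, at least 113730-fold below. S100a8, S100a9, Trem1, Clec4d, Ncf4, Cybb, Slc7a11, Hmox1, Fth1 and Cebpe were also higher without any 1 library. The stefin genes BC100530, Stfa2l1 and Stfa2, which encode near-identical protease inhibitors that read counting may not separate, had 0 reads in basophils. Cxcr2, Ptgs2 and Padi4 gave no call between the 2 granulocytes (adjusted p = 0.524, 0.953 and 0.488). Of 12 genes of glycolysis and oxygen sensing, 2 were lower in neutrophils than in basophils and 2 higher. The lower ones were Hk2 (313.3 and 429.5 CPM in basophils against 43.1 and 26.99 CPM) and Ldha (1814 and 1753 CPM against 419.7 and 448 CPM), with adjusted p = 0.00271 and 0.00247. The higher ones were Hif1a and Pdk1 (adjusted p = 0.0432 and 0.00309). The median log2 difference of this list was 0.94, against 0.36 over all genes. Genes that define basophils, namely Mcpt8, Prss34, Cd200r3, Fcer1a, Ms4a2 and Il4, were lower in neutrophils, the last 4 at 0 reads there and at least 19865-fold lower. The calls lost with the block included Hp and Irf8 (adjusted p = 0.0506 and 0.0611), and those of Ccl3, Sod1 and Txn1 were gained (adjusted p = 0.0235, 8.80e-04 and 0.0120), Ccl3 and Sod1 with a lower level in neutrophils.

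Within the label, cells were not alike, and Il1b was mostly found in other cells than the secondary granule genes Ngp, Ltf, Camp and Chil3. Lcn2 was less separate, in 26 of 100 Il1b-positive and 22 of 33 Il1b-negative cells. Mmp9 of the tertiary granules was in 95 and 26 of them. Ngp was positive in 9 of 55 female and 20 of 78 male cells (21.8% of both together, 95% interval 15.1 to 29.8%) and in none of 64 B cells. Of the 29, 22 were positive for Ltf, 22 for Camp, 18 for Chil3, 25 for Cd177 and 21 for Cebpe. In the Ngp-negative cells, 46 female and 58 male, the counts were 0 for Ltf, 2 for Camp, 0 for Chil3, 7 for Cd177 and 11 for Cebpe. Il1b ran the other way, in 8 Ngp-positive and 92 Ngp-negative cells, and so did Ccl6 (11 and 87), Ptgs2 (2 and 40) and Csf1r, the receptor for macrophage colony-stimulating factor (4 and 41). In each animal on its own, Il1b was positive in 3 of 9 Ngp-positive and 40 of 46 Ngp-negative female cells, and in 5 of 20 and 52 of 58 male cells. Ltf was positive in 7 of 9 and 0 of 46 female cells, and in 15 of 20 and 0 of 58 male cells. For Csf1r the shares were near each other in the female, 3 of 9 and 18 of 46, and apart in the male, 1 of 20 and 23 of 58. Without the doubtful cells Il1b was found in 8 of 28 and 85 of 96, and Ltf in 21 and 0. Of 76 cells positive for none of 7 secondary granule genes 67 had Il1b, of 32 with 1 or 2 such genes 29 had it, and of 25 with at least 3 genes 4 had it. The Ngp-positive cells were also the richer ones before thinning, with a median of 867309 reads against 552136, and at equal depth they held a median of 1776 detected genes against 1284. The part of this difference in the split was not tested. Cells of 1 animal share their source, so these counts describe 2 animals and carry no test.

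**Figure D4:**
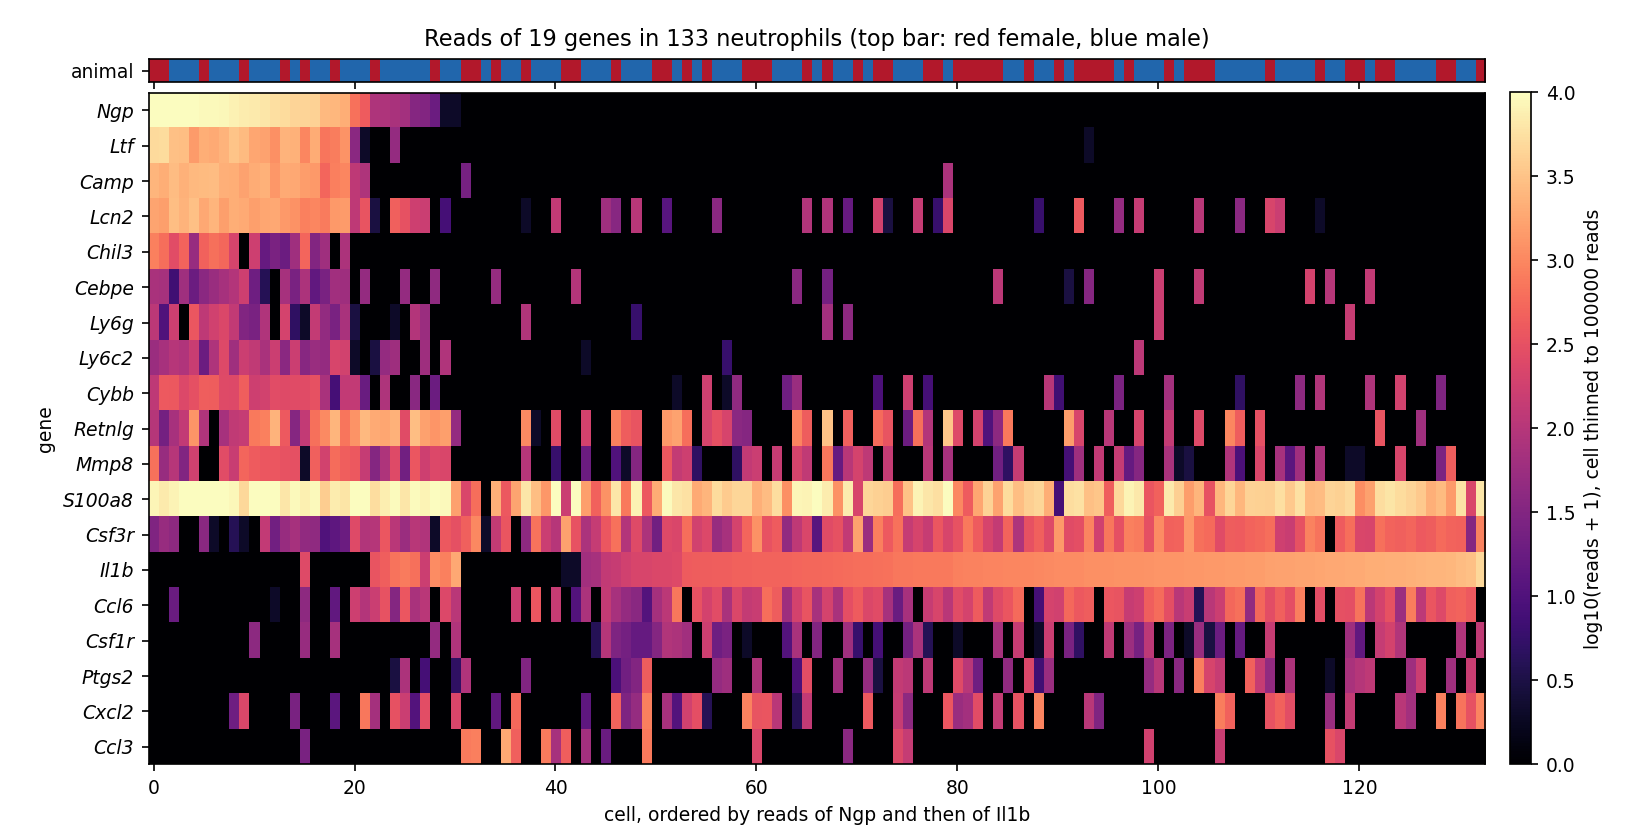
Each column is 1 of 55 female or 78 male neutrophils thinned to 100000 reads, ordered by reads of Ngp and then of Il1b, each row a gene, and colour is log10(reads + 1); the bar on top marks female (red) and male (blue) cells. The 29 Ngp-positive cells at the left carry Ltf, Camp, Chil3 and Cebpe and mostly lack Il1b, while S100a8 runs across nearly all cells.

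Other genes were found on both sides to varying degrees. Mmp9 was positive in all 29 Ngp-positive and 92 Ngp-negative cells, S100a8 in all but 1 of the cells, and Slc2a3 in 24 and 55. Several were found in a larger share of the Ngp-positive cells. Retnlg was positive in 28 of them (96.6%) and 40.4% of the Ngp-negative cells, Mmp8 in 89.7% and 39.4%, Cybb, the oxidase subunit, in 86.2% and 15.4%, and Ly6g in 62.1% and 5.77%. Cxcl2 was found in 10 and 42, and Ccl3 in 1 and 18. As a description across the 55 female and 78 male cells, which share library and depth and are not independent samples, the Spearman correlation of Ngp was 0.87 with Ltf, 0.86 with Ly6c2 and 0.84 with Camp, and -0.53 with Il1b. For Il1b it was 0.67 with Junb, 0.56 with Ccl6 and 0.56 with the kinase gene Pim1, and -0.58 with Camp.

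The 2 animals were set side by side with no test, since each sex is 1 animal. A gene was listed where the level differed at least 2-fold in all 4 pairings of a female with a male CD45 plate, and the higher animal had at least 50 CPM. This held for 435 of 3615 genes at the minimum (12%), of which 32.2% were higher in the female and 67.8% in the male. Of the neutrophil genes in the lists, 6 were in that set (5.41% of those at the minimum). Casp4, the inflammatory caspase 11, stood at 90.1 CPM (female) and 26.6 CPM (male). Higher in the male stood Sod1, cytosolic superoxide dismutase (177.96 and 597 CPM), and 4 genes of the BCL2 family, of which Bcl2l11, encoding the death-promoting BIM, stood at 42.1 and 137.4 CPM. The near-identical Bcl2a1a (9.89 and 86.8 CPM) and Bcl2a1b (11.9 and 98.3 CPM), which counting may not separate, and Bcl2l1 (2.70 and 56.8 CPM) were the others. Without the doubtful cells 9.42% of 3450 genes were listed, 48.3% of them higher in the female, and Sod1 and Bcl2l1 left the set. The genes with the largest excess in the male included Sparc, Egfl7, Cldn5 and Igfbp7, which endothelial cells express, and Hspa1a. Of the reads of Hspa1a 99.8% lay in 1 cell, and of those of Igfbp7 82.4%. A link of these genes to the endothelial and erythroid marker sums given above was not tested. Sparc stood at 0.0957 and 586 CPM and was positive in 9 male cells, and without the doubtful cells it stood at 0.0966 and 126.3 CPM. In the female direction Cry2, a circadian repressor, stood at 64.3 and 0.845 CPM and was positive in 6 female and 1 male cells.

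**Figure D5:**
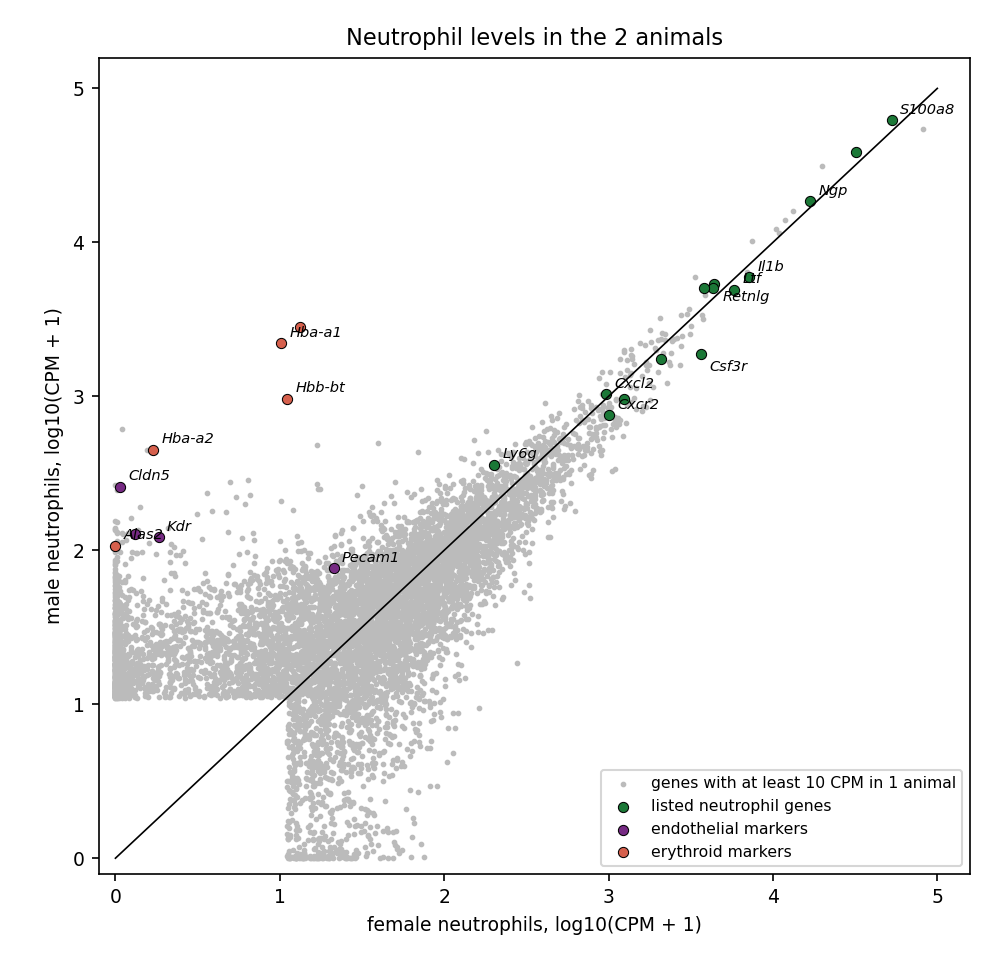
Each point is a gene with at least 10 CPM in 1 animal, placed by log10(CPM + 1) in female (x) and male (y) neutrophils, with the diagonal for equal levels. Selected neutrophil genes such as Il1b, Ngp and Csf3r (green) lie on both sides of the diagonal, while erythroid (orange) and endothelial (purple) markers lie above it. Bcl2l1 (2.70 and 56.8 CPM) and Casp4 (90.1 and 26.6 CPM), among the 6 listed genes that differed between the animals, are not picked out in colour.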

How the data were processed

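The values are raw counts of reads per gene and cell in 1 table of 18072 genes, as the authors deposited them, with 1183 cells of 2 animals; the submitters' processing notes name STAR 2.5.2b, HTSeq 0.10 and the build GRCh38, a human build name, and the mouse build and annotation are not given in the sources used here. No molecular identifiers are named, so reads copied from 1 molecule were counted separately, and intervals and the floor of 3 counts cover counting error only. Each cell has a title of its own (0 titles shared), and all columns of the table were used.

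For each animal and class the counts of all cells were added, so the animal is the replicate (n = 2). Against all other cells the p-values rest on the spread between the 2 animals within the 2 classes. Against Mac V and basophils they rest on a spread shared over 10 subtypes. The main fits did not model the pairing of libraries by animal. Tests were the quasi-likelihood test in edgeR 4.0.16 under R 4.3.3, with TMM factors and filterByExpr. In all, 4 libraries entered the comparison with all other cells, and 20 libraries of 10 subtypes entered those with Mac V and basophils. Adjusted p-values are Benjamini-Hochberg over all genes tested. Alternatives used DESeq2 1.42.0, limma 3.58.1 and the animal as a block, where the pairing comes from the labels, since compared libraries come from the same animals. Shares of cells were computed after thinning to 100000 reads (seed 20) with exact Clopper-Pearson 95% intervals (scipy 1.17.1). In counts simulated from these libraries the test against all other cells recovered 22 of 50 genes changed 32-fold, 6 of 50 changed 8-fold and 0 of 50 changed 2-fold, with 3 false calls. For Mac V it recovered 13 of 50 changed 32-fold, and for basophils 10 of 50.

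Genes named are the 12 with the largest called difference in each direction against all other cells (6 against Mac V and against basophils), the same way in both animals and with at least 50 CPM in the higher class, beside the listed genes. CPM were computed from the deposited counts. The cells, gene lists and rules were chosen with earlier results of these data known. The doubtful cells were defined after the data were seen. No doublet caller was run. A few listed genes are counted in their lists but not reported here by name.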

Additional observations from a re-analysis of the deposited data

How the results depend on the processing

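The shares below are the genes called as a percent of those tested. Neutrophils against all other cells gave 1.14%. The share was 0.650% with the size factors of DESeq2, 30.1% with DESeq2, 13.95% with limma voom, 4.12% with every cell given equal weight by its total, 0.763% within run DC35, 2.42% with the other subtypes at equal weight and 19.2% without the 10 doubtful cells, an alternative added after seeing the data. Leaving out 1 library at a time gave 1.15 to 54.9%. Against Mac V the 1.32% became 16.2% with DESeq2, 7.37% with voom, 0.556% within run DC35, 0.846% with only the 2 subtypes in the fit, 0.404% with all 15 subtypes and 3.99% without the doubtful cells, and 0.401 to 3.40% with 1 library left out. Against basophils the 7.56% became 28.8% with DESeq2, 11.7% with voom, 3.04% with only the 2 subtypes and 2.95% with all 15 subtypes, and 4.22 to 8.11% with 1 library left out. The cause of these shifts was not tested. With the animal as a replicate block the shares were 1.02, 1.68 and 7.63%, and calls it changed among the listed and named genes are given in the report. With no filter they were 1.08, 1.06 and 5.98%.

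Genes called in the main fits that were in the lists or among the largest differences were followed through the alternatives. None of them changed direction under any alternative. The calls given under the other observations below were not followed. Of the genes followed, 49 were called against all other cells. All 49 remained called with DESeq2, with voom and without the doubtful cells. These settings called 30.1, 13.95 and 19.2% of all genes, against 1.14% in the main fit, so they are a weak check on the 49. Of the 49, 35 remained with DESeq2's size factors, 35 within run DC35 and 41 with the block. Of 20 called against Mac V, 8 to 18 remained with 1 library left out, and of 68 against basophils, 39 to 58. Listing genes between the animals gave 12% of those at the minimum at 2-fold, 5.59% at 4-fold and 16.4% with a minimum of 20 CPM. With a minimum of 20 reads the share of cells positive for Mmp8, as a mean over the animals, was 44.3% in place of 49.9%. With 2 animals the spread is poorly known, so a gene that was not called is not shown to be alike between classes.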

Other observations

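The following genes lie outside the lists, were chosen after their values were seen and carry no test as a group. The stefin A genes encode inhibitors of cysteine proteases, and their near-identical copies may share reads. Stfa1 stood at 13309 CPM in female and 16036 CPM in male neutrophils against 5.1998 and 16.5 CPM in the other cells (log2 difference 11.18, SE 0.93, adjusted p = 0.0327) and was positive in 54 of 55 female and 73 of 78 male neutrophils and 1 of 64 B cells. Stfa3 stood at 1235 and 1944 CPM (log2 difference 9.29, SE 0.48, adjusted p = 0.02498) and Stfa2l1 at 3068 and 3685 CPM (adjusted p = 0.0346). BC100530, at 7453 and 10193 CPM, and Stfa2, at 2743 and 3356 CPM, did not pass against all other cells. Slpi, an inhibitor of neutrophil elastase, stood at 2080.0 and 2363 CPM against 38.3 and 35.01 CPM (log2 difference 6.72, SE 0.30, adjusted p = 0.02498), although the elastase gene Elane itself had 0 reads.

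Pglyrp1, a peptidoglycan-binding protein of the granules, stood at 3017 and 3434 CPM against 170.7 and 102.4 CPM (adjusted p = 0.0269), and Thbs1, thrombospondin 1, at 1911 and 2062 CPM against 121.7 and 123.7 CPM (log2 difference 4.82, SE 0.28, adjusted p = 0.0260). Anxa1, annexin A1, which limits neutrophil recruitment, stood at 3769.8 and 3171 CPM against 727 and 613 CPM (log2 difference 3.19, SE 0.31, adjusted p = 0.0397) and was also higher than in Mac V (log2 difference 2.88, SE 0.52, adjusted p = 0.0123). Gsr, glutathione reductase, stood at 2254 and 1222 CPM against 347.4 and 187.3 CPM and did not pass (adjusted p = 0.0653). Across the 55 female and 78 male neutrophils the Spearman correlation of Retnlg was 0.72 with BC100530 and 0.69 with Stfa2, a description of cells that share library and depth. Without the doubtful cells, Rabgef1 stood at 0.580 CPM (female) and 126.8 CPM (male) and was positive in 0 female and 12 male cells.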
